A study of Homo sapiens with 6 samples.

Results

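The cytosolic ribosomal protein genes code for the protein part of the ribosome, which carries out all protein synthesis in the cytosol. They were taken by symbol: RPL or RPS followed by a number with an optional A or X, plus RPLP0, RPLP1, RPLP2, RPSA, RPS4X, RPL36AL, RPS27L and RPL22L1. The rule found 76 genes among the 15761 genes of the table, 48 of the large and 28 of the small subunit. Ribosomal protein kinases and mitochondrial ribosomal proteins were not taken. Not every gene of the family was analysed here. The 76 symbols all matched a gene of GENCODE release 29, and the names say plainly which subunit each product belongs to.

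The cells were SK-MES-1, an established human line from a squamous cell carcinoma of the lung, recorded as wild type. In the exosome group, 3 cultures were kept for 72 h in complete medium with exosomes at 20 µg/ml. These exosomes, small vesicles that cells release, had been shed by fibroblasts of lungs with idiopathic pulmonary fibrosis, a scarring disease. In the control group, 3 cultures were kept alike without exosomes. The study asked how such exosomes act on tumour cells; all 6 libraries are of total RNA from 1 cell line, and the labels do not say how separately the cultures were grown or how many donors gave fibroblasts. The p-values below therefore measure the spread between these 6 samples, which may be technical.

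Each ribosome joins a large subunit, where peptide bonds form, with a small subunit, where the mRNA is decoded. Nearly every ribosomal protein is needed in a single copy per ribosome, so cells make them in step, and their mRNAs are among the most abundant of growing cells. Most of these mRNAs begin with a C and a run of pyrimidines, the terminal oligopyrimidine (TOP) tract, through which the mTOR pathway and the RNA-binding protein LARP1 control their translation and stability. Tumour cells are known for high ribosome production, which MYC drives.

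Library totals lay between 13038688 and 13334508 counts in the exosome group and between 11346639 and 12924251 counts in the control group. Epithelial markers were present, with a summed level of EPCAM, CDH1, KRT8 and KRT18 of 2770 to 2930 CPM (counts per 1000000 counts of the library) in exosome libraries and 3280 to 3540 CPM in control libraries, without overlap. Of these, EPCAM had means of 61.9 CPM with exosomes and 68.1 CPM in controls, and CDH1 of 20.7 CPM with exosomes and 51.5 CPM in controls. Of 5 squamous markers in the table, TP63 and SOX2 were above 1 CPM, while KRT5, KRT6A and KRT14 stayed at 0.45 CPM or less in every library. The fibroblast markers PDGFRA, COL3A1 and THY1 did not exceed 0.441 CPM, and 2 of the 5 in the table, PDGFRB and FBLN1, were above 1 CPM. The summed fibroblast markers ranged from 15.5 to 16.1 CPM with exosomes and from 18.5 to 19.2 CPM in controls, and the leukocyte markers PTPRC and CD3E did not exceed 0.353 CPM. The summed leukocyte markers, nearly all CD68, ranged from 193 to 201 CPM with exosomes and from 141 to 173 CPM in controls. Mitochondrial transcripts took 5.98 to 7% of counts with exosomes and 6.45 to 9.18% in controls. Libraries numbered 3 stood apart in both groups. By a chi-square per gene, exosome library 3 differed from exosome libraries 1 and 2 by 9.71 and 7.41, against 3.18 between those 2. Control library 3 differed from its fellows by 16.2 and 12.1, against 2.31. GC content also moved with the groups. The slope of log2 level on GC content per 10 percentage points was 0.238, 0.167 and 0.064 in exosome libraries and -0.118, -0.138 and -0.212 in control libraries. The part of the marker and mitochondrial differences in the results below was not tested.

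The start sites of the genes that the results below turn on are shown because they carry the feature most members share, the TOP tract. Each line holds the 25 bases before and the first 25 bases from the RefSeq start on (GRCh38.p14), 5′ to 3′ on the gene's own strand. Capitals mark the unbroken pyrimidine run that begins with a C at the start site. The first lines are members that were higher with exosomes, RPL36 (chr19:5690270-5690319, plus strand), RPL35 (chr9:124861933-124861982, minus strand) and RPL36AL (chr14:49620602-49620651, minus strand).
RPL36: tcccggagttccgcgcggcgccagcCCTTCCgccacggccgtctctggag
RPL35: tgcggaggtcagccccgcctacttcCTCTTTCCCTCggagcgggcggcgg
RPL36AL: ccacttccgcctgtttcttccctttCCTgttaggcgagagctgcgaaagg
The next lines are the 4 members that were lower with exosomes, RPL39 (chrX:119791606-119791655, minus strand), RPL9 (chr4:39458898-39458947, minus strand), RPS3A (chr4:151099603-151099652, plus strand) and RPSA (chr3:39406695-39406744, plus strand).
RPL39: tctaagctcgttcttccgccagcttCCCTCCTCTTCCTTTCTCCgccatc
RPL9: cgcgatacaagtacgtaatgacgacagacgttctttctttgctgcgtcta
RPS3A: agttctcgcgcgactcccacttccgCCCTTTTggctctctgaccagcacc
RPSA: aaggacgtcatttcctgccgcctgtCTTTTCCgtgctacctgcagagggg
The last lines are members of paralogue pairs, RPS27 (chr1:153990737-153990786, plus strand) with RPS27L (chr15:63157453-63157502, minus strand) and RPL22 (chr1:6199571-6199620, minus strand) with RPL22L1 (chr3:170870171-170870220, minus strand). After them come RPS24 (chr10:78033838-78033887, plus strand) and RPL41 (chr12:56116608-56116657, plus strand), members with a low value in control library 3.
RPS27: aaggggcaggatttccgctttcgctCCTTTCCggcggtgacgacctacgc
RPS27L: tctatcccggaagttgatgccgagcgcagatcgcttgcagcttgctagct
RPL22: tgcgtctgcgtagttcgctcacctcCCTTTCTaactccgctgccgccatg
RPL22L1: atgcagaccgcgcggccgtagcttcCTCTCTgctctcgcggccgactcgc
RPS24: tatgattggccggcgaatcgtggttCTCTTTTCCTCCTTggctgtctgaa
RPL41: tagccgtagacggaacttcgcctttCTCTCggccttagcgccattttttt
The run was 19 bases long in RPL39 and 14 in RPS24, while RPS27L and RPL9 had none at their RefSeq start and RPL36AL had 3 bases.

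A tract was counted where the C was followed by at least 4 pyrimidines. RefSeq gave 77 start windows for 62 of the 76 members, and 44 of the 77 (57.1%) had the tract, against 1429 of 35116 windows of all genes (4.07%). The ETS-family motif CCGGAAG, searched on both strands of the 300 bases from 250 before to 50 after each start, was in 32.5% of the members' windows, 10.3% of all windows and 14.5% of the windows of the table's coding genes. The YY1-type motif AAGATGGC was in 9.09% of the members' windows, 2.89% of all windows and 4.08% of those of the table's coding genes. TATAAA was in 7.79% of the members' windows, against 11.5% of all windows and 7.29% of those of the table's coding genes, so the members were close to other coding genes in this motif. The tract itself was at 4.78% of the coding genes' starts. CCGGAAG ends in the letters with which AAGATGGC begins, so 1 stretch can hold both, and a match describes letters only.

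Most members were abundant in SK-MES-1 cells. Per length, on the authors' FPKM scale (fragments per 1000 bases of gene and per 1000000 in the library), the mean over 6 libraries ran from 0.198 to 1459 FPKM with a median of 195 FPKM. RPS2, a protein at the mRNA entry, was the highest at 1826 ± 234 FPKM with exosomes and 1092 ± 53.5 FPKM in controls (SD, n = 3 each). RPS4X and RPSA, both of the small subunit, came next at 752 and 731 FPKM over all libraries. The lowest were RPL7A, RPL36A and RPS10 at 0.198, 0.29 and 0.741 FPKM. RPL7A, a protein of the large subunit, had 4, 0 and 0 counts in exosome libraries and 3, 5 and 1 counts in control libraries, and RPL36A had 6, 5 and 5 counts with exosomes and 4, 3 and 5 counts in controls. Neither passed the filter on low counts, so 74 members were tested. In all, 12 members averaged under 30 CPM, among them RPL17, RPL21, RPL26, RPS15A, RPS26 and RPS28. GENCODE names pseudogenes of 72 members, 1116 in all, and 3 of the low members (RPL17, RPL36A and RPS10) lie in read-through genes. The sources used here do not say how the authors' counting treated reads that fit several places or whether it used strand, so low values of these members are uncertain. The gene lengths behind the FPKM values ran from 359 to 8211 bases in the tested members with a median of 1449 bases, against 1072 bases for their principal transcripts, and the levels per length rest on them.

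Ribosomal protein genes as a whole took a larger part of the library with exosomes. Their share of all counts was 3.47%, 3.69% and 3.14% in the exosome libraries, against 2.53%, 2.56% and 2.19% in the control libraries. Every exosome library lay above every control library, and library 3 was the lowest of each group. The mean share was 3.43 ± 0.279% with exosomes and 2.43 ± 0.205% in controls (SD, n = 3 each), a ratio of 1.41. In these bulk samples, a change in the kinds of cells and a change in RNA per cell cannot be told apart.

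Both subunits took part, the large one with the larger shift. The large subunit held 2.11 ± 0.172% of counts with exosomes and 1.43 ± 0.148% in controls, and the small subunit held 1.33 ± 0.107% with exosomes and 0.994 ± 0.0573% in controls (SD, n = 3 each). The ratio of large to small subunit counts was 1.59, 1.59 and 1.58 in the exosome libraries and 1.49, 1.47 and 1.36 in the control libraries. The exosome libraries were nearly alike and above all controls. Control library 3 was the lowest, and the mean of the other 2 controls was 1.48. Without the 3 most abundant members, RPS2, RPLP0 and RPL13, the difference in this ratio was 0.22, against 0.149 with all members.

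**Figure D1:**
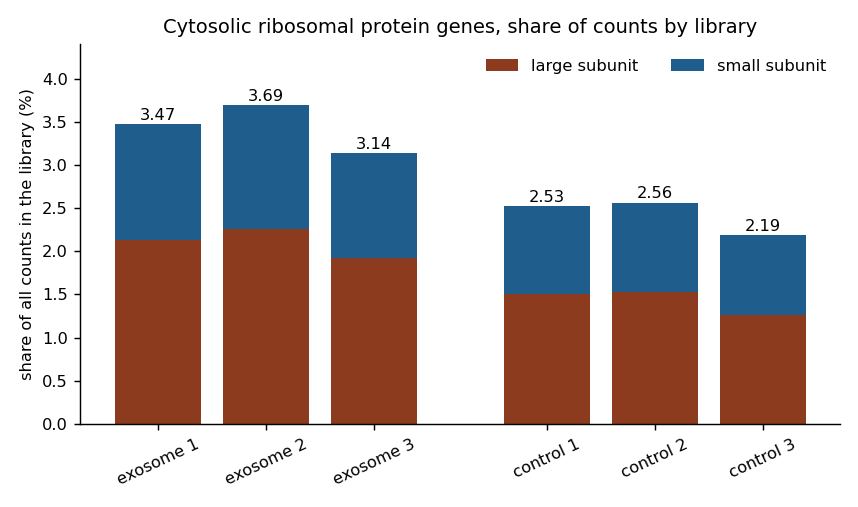
Share of all counts (%) taken by the large (brown) and small (blue) subunit genes, stacked, 1 bar per library, with the sum of both above each bar. The exosome libraries reach 3.14 to 3.69% and the control libraries 2.19 to 2.56%.

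Gene by gene, rises outnumbered falls. In edgeR's quasi-likelihood test with Benjamini-Hochberg adjustment over 12449 genes, 41 of 74 members rose and 4 fell at an adjusted p under 0.05, and 29 did not pass. A gene past that threshold is referred to as called. Over all genes tested, 25.6% rose and 26.1% fell. The median log2 fold change of exosome over control was 0.40 for the members and -0.004 for all genes. Of the large subunit, 27 of 46 rose and 2 fell (RPL39 and RPL9), with a median of 0.47. Of the small subunit, 14 of 28 rose and 2 fell (RPS3A and RPSA), with a median of 0.34. In CPM, the exosome libraries lay above all control libraries for 53 members and below all of them for 4, shares of 71.6% and 5.41%, against 35.0% and 24.5% of all genes. At least 2-fold rises were called for RPL36, RPL36AL, RPL37 and RPL8, and for 2.92% of all genes; no member fell 2-fold, against 1.29% of all genes. These fold changes carry TMM scaling, which lowers them against ratios of CPM; with library totals alone the median of all genes moved by 0.08, and 45 members rose and 1 fell, against 30.6% and 20.0% of all genes. The direction of the members' median was the same with every scaling tried.

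**Figure D2:**
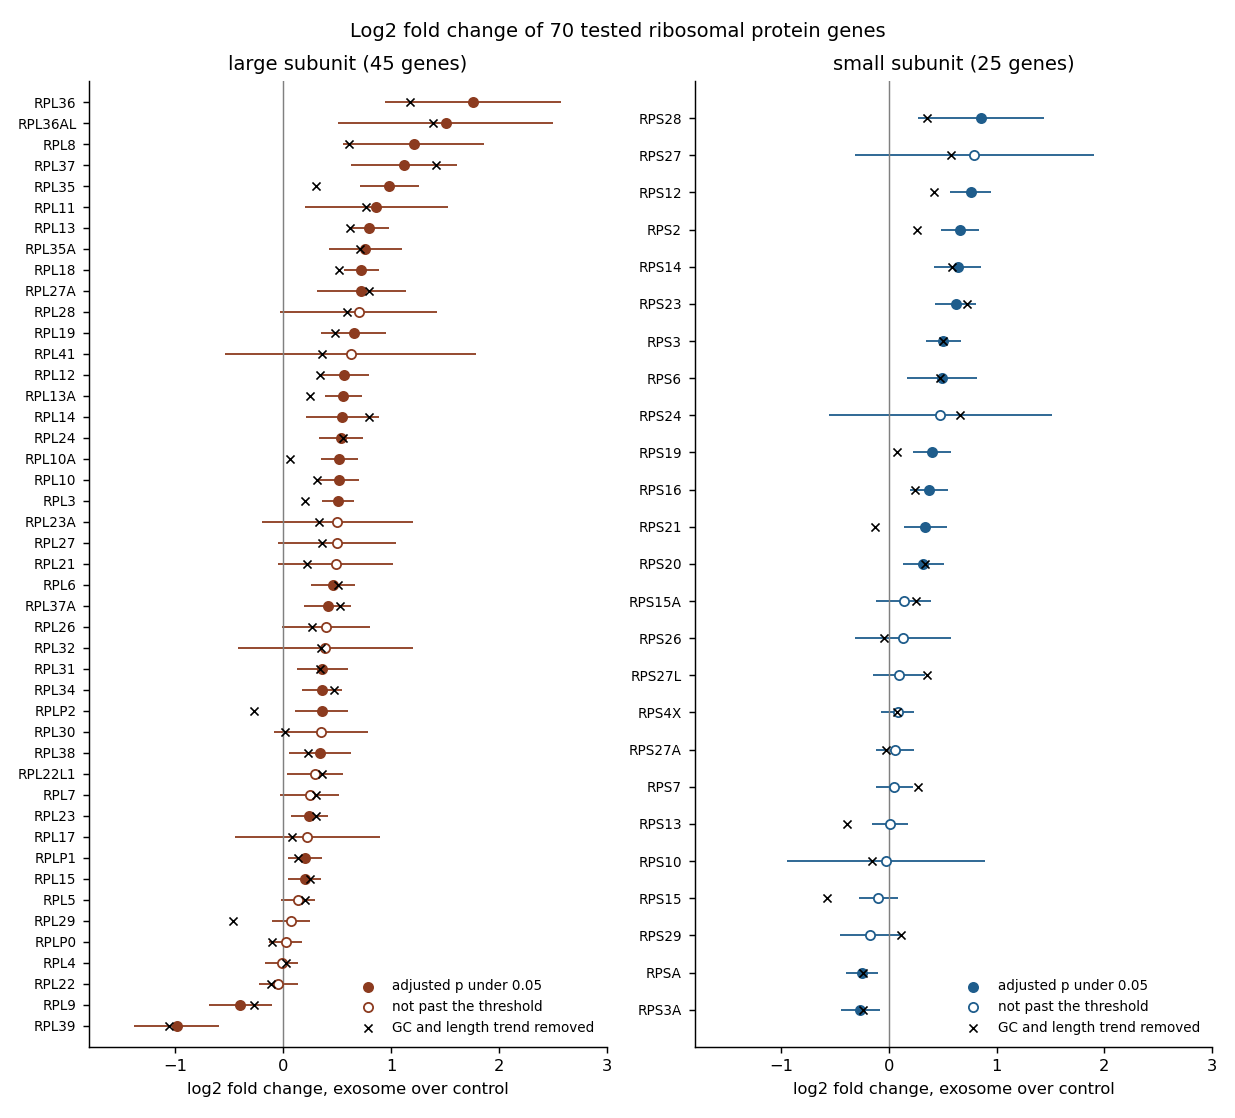
Log2 fold change of exosome over control (horizontal axis) for 70 of the 74 tested members, large subunit on the left and small subunit on the right, with 95% intervals computed from the edgeR test. Filled points passed an adjusted p of 0.05 (38 higher, 4 lower), open points did not, and crosses give the value after the trend with GC content and length was removed.

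Some rises were large, and RPL36 was the highest. RPL36, a protein of the large subunit's surface whose gene lies at chr19:5674947-5691876, had 364, 385 and 258 CPM in exosome libraries and 107, 112 and 61.0 CPM in control libraries. All exosome libraries were above all controls, with library 3 lowest in both groups. Its log2 fold change was 1.76 ± 0.31 (SE), with an adjusted p of 0.0083, and it held when any 1 library was left out (highest adjusted p 0.0412). The gene overlaps 2 coding genes on the other strand, whose reads cannot be told apart if strand was not used, and 1 coding gene on its own strand, which strand would not separate. RPL36 is not alone in this, as 26 of the 76 members overlap a coding gene on the other strand, RPL35, RPL9, RPS3A and RPS28 among them. RPL36AL, a retained near-copy of RPL36A, had 75.5, 89.0 and 61.0 CPM with exosomes and 32.0, 29.8 and 13.2 CPM in controls. Its groups did not overlap, and control library 3 stood at 42.6% of the mean of the other controls. The log2 fold change was 1.51 ± 0.38 with an adjusted p of 0.027, which was 0.092 at most when 1 library was left out; the call was lost without control 2, exosome 1 or exosome 2.

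The other large risers followed the same pattern across libraries. RPL8, which lies close to the peptidyl transferase centre, had 1110, 1049 and 851 CPM with exosomes and 499, 445 and 282 CPM in controls, a log2 fold change of 1.21 ± 0.25 with an adjusted p of 0.0132. That call was lost without exosome 1 or exosome 2 (adjusted p up to 0.0616). RPL37, a small zinc-binding protein of the large subunit, had 611, 734 and 507 CPM with exosomes and 296, 303 and 204 CPM in controls. Its log2 fold change was 1.12 ± 0.20, with an adjusted p of 0.00416. In RPL8 and RPL37 every exosome library lay above every control library. RPL35, at the rim of the exit tunnel, had 446, 426 and 300.3 CPM with exosomes and 190, 199 and 169 CPM in controls. Here control library 3 was close to its fellows, the log2 fold change was 0.99 ± 0.12 and the adjusted p was 4.14e-05. Of the 5 risers described so far, RPL35 had the smallest adjusted p, and without control library 3 its log2 fold change was 0.93.

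Falls were few, and only RPL39 fell by more than 0.5 on the log2 scale. RPL39, a short protein lining the exit tunnel whose gene lies at chrX:119786504-119791643, had 36.8, 51.8 and 59.8 CPM in exosome libraries and 102, 94.4 and 81.7 CPM in control libraries. The groups did not overlap, and exosome 1 was the lowest library. RPL39 fell by 0.99 ± 0.17 on the log2 scale (adjusted p = 0.00127), and the call held when any 1 library was left out (highest adjusted p 0.00725). RPL9, a large subunit protein near the factor-binding site, had 10.3, 10.8 and 12.7 CPM with exosomes and 14.5, 14.0 and 13.6 CPM in controls. It fell by 0.40 ± 0.14 (adjusted p = 0.0234), with 2 of 6 calls left when 1 library was left out, those without control 3 or exosome 3; the highest adjusted p was 0.11.

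RPS3A and RPSA, both at the side of the small subunit where the mRNA leaves, made up the other falls. RPS3A had 214, 272 and 263 CPM with exosomes and 278, 297 and 275 CPM in controls, a log2 fold change of -0.26 ± 0.09 with an adjusted p of 0.0146. Exosome 1 was the lowest library and the other 2 were just under the controls; the call was lost without exosome 1 (adjusted p 0.138) or control 2. RPSA, also known as the laminin receptor precursor, had 809, 834 and 809 CPM with exosomes and 872, 929 and 951 CPM in controls. Its log2 fold change was -0.25 ± 0.07, the adjusted p was 0.00652, and the call held when any 1 library was left out. With library totals in place of TMM, RPL39 was the only member called lower, and the adjusted p of RPSA was 0.0571.

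**Figure D3:**
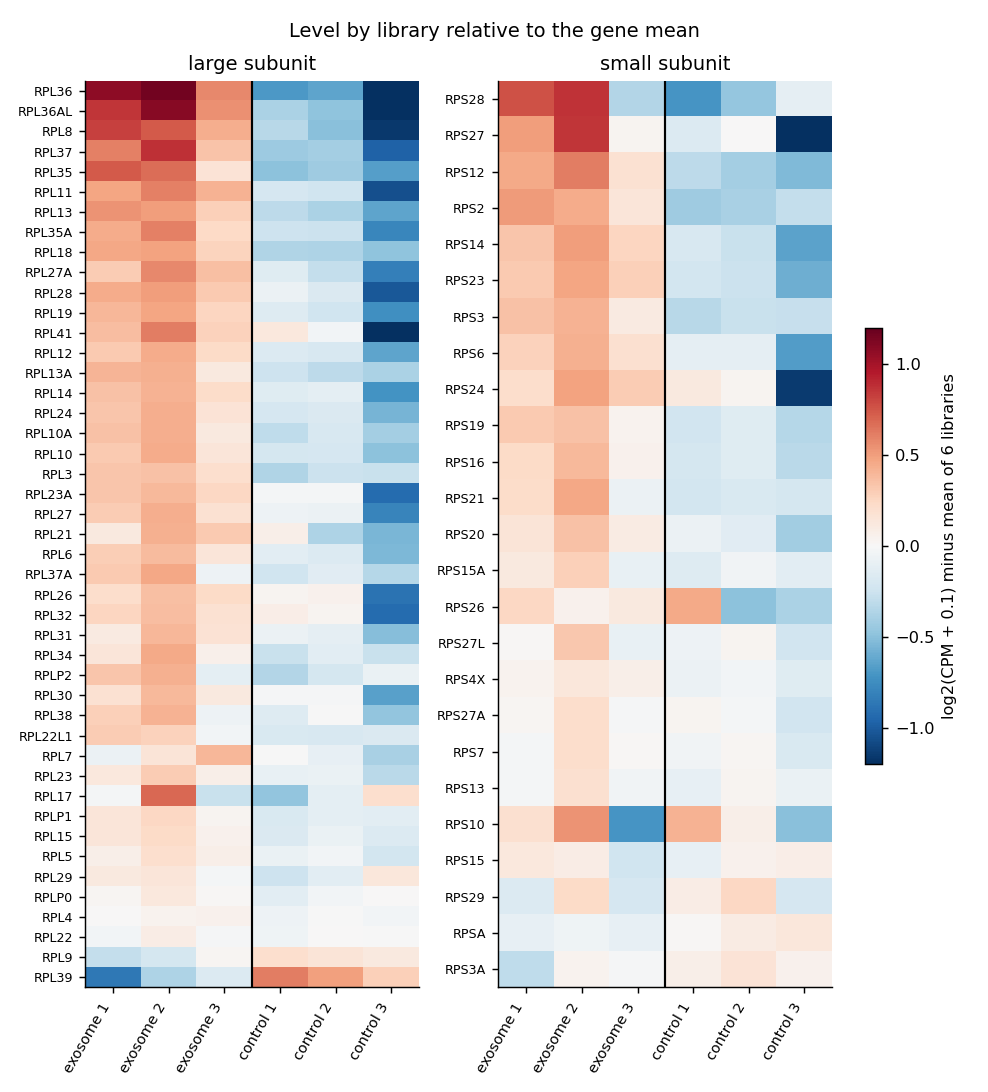
Level of 70 of the 74 tested members in each library, as log2(CPM + 0.1) minus the mean of its 6 libraries (red above, blue below; values past the ends of the colour scale take the end colour). Genes are ordered by fold change, the exosome libraries stand left of the line, and control 3, at the right of each panel, is the lowest control in 51 of the 70.

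Sorted by place in the ribosome, 3 of the 4 members of the stalk that recruits elongation factors rose and 0 fell. The places counted here and below hold only 3 to 9 members each, and over all genes tested 25.6% rose and 26.1% fell. The median log2 fold change of the stalk members was 0.28. It was 0.02 with GC content and length of the longest transcript removed, as described below. RPLP0, the base of the stalk, had 1248, 1341 and 1236 CPM with exosomes and 1124, 1198 and 1232 CPM in controls. The groups came close without overlapping, the log2 fold change was 0.02 and its 95% interval was -0.13 to 0.18 (adjusted p = 0.803). With GC content and length of the principal transcript removed, as described below, RPLP0 was called lower at -0.33 (adjusted p = 9.04e-04). RPLP1 and RPLP2, the acidic stalk proteins, rose by 0.20 and 0.36 (adjusted p = 0.027 and 0.0168). RPLP2 had 289, 307 and 211 CPM with exosomes and 179, 198 and 217 CPM in controls, so that exosome 3 lay among the controls. RPL12, next to the stalk base, rose by 0.56. In RPLP1 the call held in 2 and in RPLP2 in 4 of the 6 fits that left out 1 library (highest adjusted p 0.177 and 0.091).

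RPL5 and RPL11 bind the small ribosomal RNA of the large subunit together and, outside the ribosome, can bind MDM2, a ubiquitin ligase. RPL11 had 434, 474 and 416 CPM with exosomes and 272, 264 and 150 CPM in controls, a log2 fold change of 0.86 ± 0.26 with an adjusted p of 0.0414. RPL5 had 604, 661 and 604 CPM with exosomes and 544, 562 and 495 CPM in controls, a log2 fold change of 0.14 with an interval of -0.02 to 0.30 (adjusted p = 0.137). In both genes the exosome libraries lay above all controls. The call of RPL11 held only without control 1 or control 3 among the fits that left out 1 library (highest adjusted p 0.129), and without control 3 its log2 fold change was 0.64.

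Proteins around the peptidyl transferase centre, RPL3, RPL8 and RPL10, all rose, by 0.51, 1.21 and 0.52. Of the 9 members at the exit tunnel and its rim, 3 rose (RPL19, RPL31 and RPL35) and 1 fell (RPL39), against 25.6% and 26.1% of all genes. With GC content and length of the longest transcript removed, the medians were 0.32 at the centre and 0.27 at the tunnel. RPL4, a tunnel protein, had 1166, 1199 and 1208 CPM with exosomes and 1116, 1159 and 1134 CPM in controls, a log2 fold change of -0.01 with an interval of -0.16 to 0.14.

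On the small subunit, 3 of the 4 members at the mRNA entry and decoding site rose (RPS2, RPS3 and RPS23) and 0 fell. RPS2 had 2329, 2228 and 1815 CPM with exosomes and 1219, 1252 and 1339 CPM in controls, a log2 fold change of 0.66 ± 0.08 with an adjusted p of 2.46e-06. RPS15, whose tail reaches the decoding site, had a log2 fold change of -0.10 and did not pass. Of the 6 at the mRNA exit and platform, 3 rose, RPS14 and RPS28 among them, and RPSA and RPS3A fell. RPS28 had 7.59, 8.13 and 3.45 CPM with exosomes and 2.67, 3.17 and 4.10 CPM in controls. Exosome 3 lay among the controls, and the call (0.86 ± 0.28, adjusted p = 0.0149) was lost without control 1, exosome 1 or exosome 2. Of the 3 beak proteins, RPS12 rose by 0.76 while RPS27A, made as a fusion with ubiquitin, and RPS10, at about 1 CPM, did not pass, with log2 fold changes of 0.06 and -0.02. Over all genes tested, 25.6% rose and 26.1% fell. With GC content and length of the longest transcript removed, the median was 0.38 at the entry and decoding site. It was 0.0097 at the exit and platform and -0.02 in the beak.

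A few small subunit members have roles of their own. RPS6, the substrate of S6 kinase, had 442, 493 and 418 CPM with exosomes and 339, 339 and 230 CPM in controls, without overlap. It rose by 0.49 ± 0.14 (adjusted p = 0.017), and the call was lost without exosome 1 or exosome 3 (adjusted p up to 0.0917). RPS19, the gene most often mutated in Diamond-Blackfan anaemia, had 259, 265 and 214 CPM with exosomes and 177, 187 and 164 CPM in controls. It rose by 0.40 ± 0.08 with an adjusted p of 4.84e-04, and every library left out in turn kept the call. RPS4X, one of the 3 highest by FPKM, had 1180, 1259 and 1202 CPM with exosomes and 1088, 1120 and 1033 CPM in controls. The groups did not overlap in CPM, but the log2 fold change with TMM scaling was 0.09 with an interval of -0.07 to 0.24 (adjusted p = 0.349).

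Paralogues allow a comparison that does not depend on the scaling of libraries, though it still carries any trend with GC content and length. RPS27L, a paralogue of RPS27, had 29.9, 37.0 and 27.8 CPM with exosomes and 28.3, 30.3 and 25.1 CPM in controls, while RPS27 had 70.0, 89.7 and 50.5 CPM with exosomes and 44.2, 49.4 and 20.8 CPM in controls. RPS27 exosome libraries lay above all controls, but its log2 fold change of 0.80 ± 0.41 did not pass (adjusted p = 0.184), nor did the 0.10 of RPS27L. The log2 ratio of RPS27L to RPS27 counts was -1.12 ± 0.227 with exosomes and -0.358 ± 0.547 in controls (SD, n = 3 each). Control 3 alone was above 0, at 0.272, and the difference between the group means was -0.76 with it and -0.45 without it. The principal transcripts have 6434 bases in RPS27L and 359 bases in RPS27. With the GC and length trend removed, as described below, the log2 fold changes were 0.36 for RPS27L and 0.58 for RPS27. With the principal transcript they were 0.39 and 0.45, so the partners lay closer together than before the removal. For RPS27L both choices of transcript have 6434 bases, so the second choice varies the length of RPS27 only. Whether the RPS27L mRNA has this length in these cells was not tested.

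RPL22L1, the paralogue of RPL22, had 22.7, 22.3 and 17.9 CPM with exosomes and 16.11, 16.04 and 16.25 CPM in controls. The groups did not overlap, and the log2 fold change of 0.30 had an adjusted p that rounds to 0.05 and lay just over the threshold. RPL22 had 51.3, 55.9 and 52.0 CPM with exosomes and 50.4, 52.6 and 52.2 CPM in controls, which overlap, with an interval of -0.23 to 0.14. With the GC and length trend removed, RPL22L1 had 0.36 and RPL22 -0.11. With the principal transcript they had 0.42 and 0.08. The log2 ratio of RPL22L1 to RPL22 was -1.35 ± 0.181 with exosomes and -1.68 ± 0.0345 in controls (SD, n = 3 each). The ratio of RPL36AL to RPL36A was 7.40 with exosomes and 6.02 in controls on the same scale, a difference of 1.38 that was 0.85 without control 3, and it rests on 3 to 6 reads of RPL36A per library. In each of the 3 pairs the groups did not overlap, and a two-sided exact permutation test gave p = 0.1, raw and adjusted over the 3 pairs, the smallest value that 3 against 3 libraries allow.

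Control library 3 was low in many members, and this touches both the size of the rises and which of them passed. It was the lowest control in 54 of 74 members (73.0%), against 36.3% of all genes, and at least 0.5 lower on the log2 scale than the mean of the other controls in 21 members (28.4%), against 7.23%. The median of that log2 ratio was -0.24 in the members, -0.31 in the large and -0.17 in the small subunit, and 0.02 in all genes. Exosome library 3 was likewise the lowest of its group in 58 members (78.4%), against 44.0% of all genes.

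RPL41, the shortest ribosomal protein, had the deepest drop of the 74 tested members. It had 298, 354 and 280 CPM with exosomes and 252, 227 and 90.6 CPM in controls, so control 3 stood at 37.9% of its fellows. RPS24, a small subunit protein needed for rRNA processing, had 713, 861 and 759 CPM with exosomes and 668, 631 and 278 CPM in controls. In both, exosome libraries lay above all controls, yet the log2 fold changes of 0.62 and 0.48 did not pass (adjusted p = 0.302 and 0.366). Without control library 3, RPL41 was called at 0.30 (adjusted p = 0.00389), while RPS24 had 0.18 (adjusted p = 0.0516).

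Without that library, 46 members rose and 5 fell, against 24.4% and 23.3% of all genes. RPL23A, RPL27, RPL28, RPL29, RPL41 and RPS27 were then called higher and RPS29 lower, and the call of RPL23 was lost. The 40 members that rose both ways mostly had smaller changes, since 33 of them had a lower log2 fold change without control 3, and the medians were 0.35 in the large and 0.26 in the small subunit. Across the 74 members, the log2 fold change and the log2 ratio of control 3 to its fellows had a Spearman correlation of -0.469, but both contain control 3, so it is given as a description only.

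**Figure D4:**
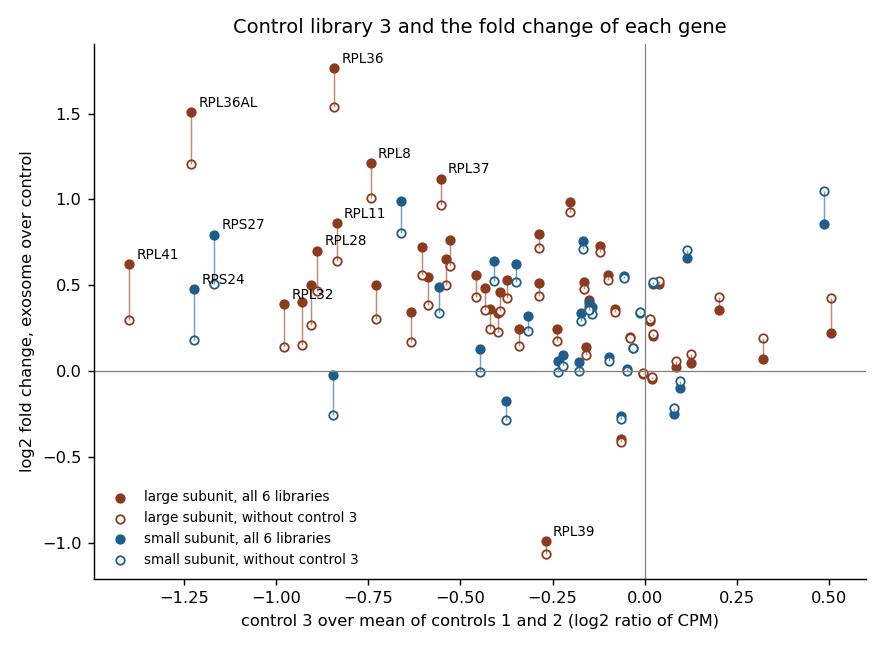
Log2 ratio of control library 3 to the mean of control libraries 1 and 2 (horizontal axis) against the log2 fold change of exosome over control (vertical axis) for the 74 members. Filled points use all 6 libraries and open points leave out control 3, and lines join both values of a gene; in 33 of the 40 members that rose both ways the open point is the lower one.

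The members had short principal transcripts at the median, and other genes chosen for a short one had a similar library pattern. The median length of the principal transcript was 1072 bases in the members and 3206 bases in all genes tested. Among 111 other genes with a principal transcript under 900 bases and at least 30 CPM, the median log2 ratio of control 3 to its fellows was -0.32, and control 3 was the lowest in 75.7%. The median log2 fold change was 0.40 in the members and 0.50 in these short genes. The 6333 longer genes at that level had medians of 0.05 for the ratio and -0.08 for the fold change. Control 3 was the lowest in 2065 of them (32.6%), so the pattern was not limited to short genes. After the trend with GC content and length described next was removed, the median log2 fold change was 0.30 in the members and 0.20 in the 111 short genes. That removal used the longest transcript, while the short genes were chosen by the principal transcript. The members were not limited to 900 bases or 30 CPM, so the sets are unlike. With the principal transcript the members' median was 0.23, and that of the short genes is not given. What short mRNA length adds to the members' result beyond that trend was not tested.

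GC content and length were followed across all genes as well. Over the 74 members the log2 fold change had a Spearman correlation of 0.307 with the GC content of the longest transcript and -0.136 with its length. Over all 12449 genes these were 0.617 and -0.393, with the 6 libraries shared by all points. After a smooth trend of both was removed with an offset fitted without the members, 36 members rose and 6 fell, against 17.9% and 17.6% of all genes. The medians were 0.32 in the large and 0.25 in the small subunit. The large subunit had 25 higher and 2 lower, and the small subunit 11 higher and 4 lower.

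RPL36, RPL36AL, RPL37, RPL8 and RPL35 stayed called, at 1.17, 1.39, 1.42, 0.61 and 0.31, and so did the falls of RPL39 (-1.06), RPS3A (-0.24) and RPSA (-0.24). The value of RPL37 grew from 1.12, with an annotated transcript of 7686 bases. In RPL37, RPL36AL and RPL8 the longest and the principal transcript have the same length, so the choice between them does not vary it. Whether the annotated lengths are those of the mRNAs in these cells was not tested. In all, 11 calls were lost, among them those of RPL10A, RPL11, RPL38, RPL9, RPLP1, RPLP2, RPS19, RPS21 and RPS28. RPL10A, on the large subunit's L1 stalk, rose by 0.52 (adjusted p = 3.31e-05) and had 0.06 after the removal. RPS21, another small subunit protein, rose by 0.34 with all effects left in and had -0.12. RPS19 had 0.07, RPLP2 -0.27 and RPS28 0.36.

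Other members were called only after the removal. RPL22L1, RPL5, RPL7, RPS27L and RPS7 were then higher and 3 were lower, RPS13 and RPS15 among them. These added calls depend in part on the transcript taken. RPS7 was called higher at 0.27 (adjusted p = 0.00838) with the longest transcript and lower at -0.29 (adjusted p = 6.62e-04) with the principal transcript. RPL5 and RPL7 were not called with the principal transcript, at 0.03 and 0.23 (adjusted p = 0.666 and 0.178). With GC content and length taken from the principal transcript, 31 rose and 9 fell, against 16.9% and 17.2% of all genes, and the medians were 0.26 in the large and 0.07 in the small subunit. The large subunit had 23 higher and 3 lower, and the small subunit 8 higher and 6 lower. Under both choices of transcript 30 members kept their call, 27 of them higher. In some of these, RPL37 among them, both choices have the same length and GC content. RPL10, RPL12, RPL13, RPL13A, RPL18, RPL19, RPL24, RPL3, RPL34, RPL35, RPL35A, RPL36, RPL37, RPL6, RPS12, RPS14, RPS23 and RPS3 were called higher in all 22 fits run, and 0 members were called lower in all. The 22 fits draw on the same 6 libraries. How many of all genes kept a call under both transcripts or in every fit is not given here, so these member counts have no share beside them.

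**Figure D5:**
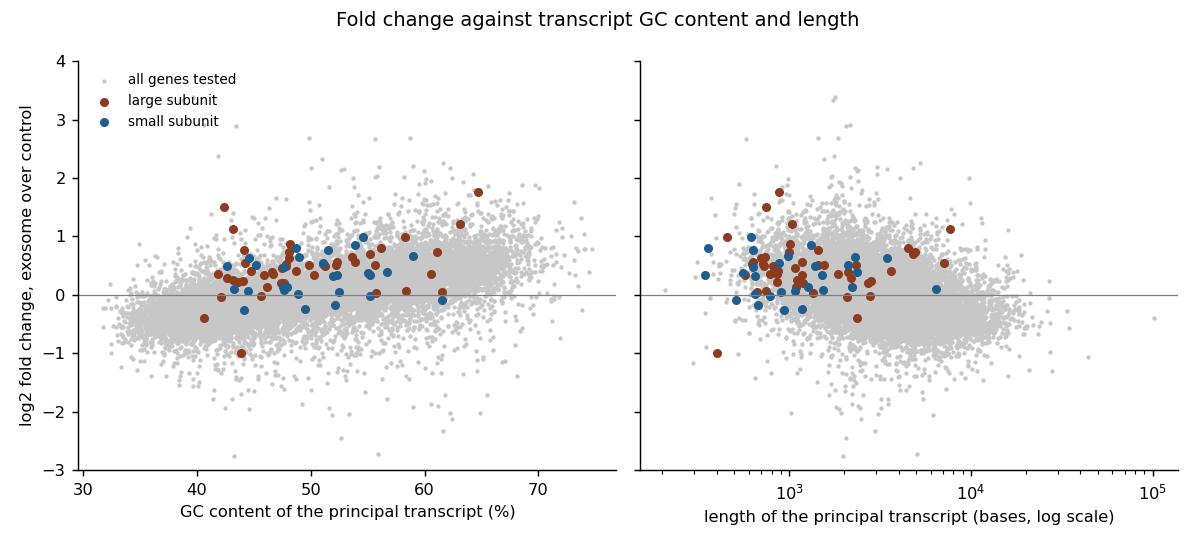
Log2 fold change of exosome over control (vertical axis) against GC content (left, %) and length (right, bases, log scale) of the principal transcript, for the 12449 genes tested (grey) and the large (brown) and small (blue) subunit members. Grey points climb with GC content and fall with length. The members run from 344 to 7686 bases, with a median of 1072 bases against 3206 for all genes, and most of their points lie above 0.

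The TOP tract at the start was set beside the fold changes. Of 42 tested members with a tract in a RefSeq window, 26 rose and 3 fell, with a median log2 fold change of 0.48. Of 18 with windows but no tract, 7 rose and 1 fell, with a median of 0.21. Of 14 with no window in the table, 8 rose and 0 fell, with a median of 0.34. Over all genes tested, 25.6% rose and 26.1% fell. These values still carry the trend with GC content and length, and the split by tract is not given after its removal. Whether the tract goes with the fold change was not tested. The tract is present in the largest faller, RPL39, where it is longest among the printed starts, and in the highest riser, RPL36, and the printed start of RPL36AL has none of the required length.

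Other genes of the ribosome pathway rose and fell, and many of their calls did not outlast the removal of the GC and length trend. Of 132 tested pathway genes, 47 rose (35.6%) and 30 fell (22.7%), against 25.6% and 26.1% of all genes. After the removal, 37 rose (28.0%) and 10 fell (7.58%), against 17.9% and 17.6% of all genes. Of 5 tested ribosomal proteins outside the naming rule, 2 rose and 0 fell, FAU by 0.60, coding for a fusion that yields a small subunit protein, and RACK1, the scaffold on the small subunit's head, by 0.48. After the removal FAU stayed called at 0.29, and RACK1 had 0.21 (adjusted p = 0.0607). RPL39L, at -0.11 before it (adjusted p = 0.509), was then called lower at -0.49 (adjusted p = 0.0126). RPL26L1, a paralogue of RPL26, had a log2 fold change of 0.36 and did not pass (adjusted p = 0.0773).

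Of 44 tested factors of rRNA processing and subunit assembly, 18 rose (40.9%) and 7 fell (15.9%), with a median of 0.15. Among them NOP56, a box C/D particle protein, rose by 0.63, BOP1 and PES1, partners in large subunit assembly, rose by 0.67 and 0.48, and NMD3, the export adaptor of the large subunit, fell by 0.55. NOP56 and NMD3 stayed called after the removal, at 0.50 and -0.33, and BOP1 and PES1 did not, at 0.13 and 0.15 (adjusted p = 0.281 and 0.0513). Of 13 RNA polymerase I genes, 4 rose (30.8%) and 2 fell (15.4%), with the rDNA transcription factors TAF1C and UBTF at 0.67 and 0.48, TAF1B at -0.40 and the polymerase subunit TWISTNB at -0.48. TAF1C, UBTF and TAF1B stayed called after the removal, at 0.35, 0.35 and -0.25, and TWISTNB had -0.17 (adjusted p = 0.068).

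Of 12 chaperones and importins of ribosomal proteins, 4 rose and 4 fell, each 33.3% of the list. RPS19BP1, a binder of RPS19, was up by 1.07 and AAMP by 0.55, and the importins TNPO1 and IPO7 were down, at -0.49 and -0.43. After the removal RPS19BP1 stayed called at 0.92. The other 3 calls ended, with 0.18 for AAMP, 0.01 for TNPO1 and -0.03 for IPO7 (adjusted p = 0.138, 0.856 and 0.671).

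Of 33 initiation factors, 11 rose (33.3%) and 9 fell (27.3%), shares near those of all genes, with EIF3C at 1.29 and EIF3F at 0.40 among the rises and EIF1AX at -0.47 and EIF4G2 at -0.37 among the falls. After the removal 11 were called higher (33.3%) and 1 lower (3.03%), against 17.9% and 17.6% of all genes. EIF3C and EIF3F stayed called at 1.31 and 0.76, and EIF1AX and EIF4G2 did not, at -0.08 and -0.03 (adjusted p = 0.431 and 0.762). Of 8 elongation and termination factors, EEF2, which moves the ribosome along the mRNA, rose by 0.22, and ABCE1, EIF5A2, ETF1 and GSPT1 fell, at -0.37, -0.50, -0.25 and -0.22. All 5 of these calls ended after the removal, and the sign turned for EEF2 (-0.12, adjusted p = 0.237) and GSPT1 (0.12, adjusted p = 0.0949), while ABCE1, EIF5A2 and ETF1 had -0.08, -0.04 and -0.09. Then 2 other factors of this list (25%) were called lower and 0 higher, against 17.6% and 17.9% of all genes.

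Of 13 other mRNAs known to carry TOP tracts, 5 rose (38.5%) and 2 fell (15.4%), with a median of 0.05. HNRNPA1 rose by 0.44, EIF3F by 0.40 and EIF4B by 0.25, and NAP1L1 fell by 0.37. The named rises stayed called after the removal, HNRNPA1 at 0.62 and EIF4B at 0.32, and NAP1L1 had 0.13 (adjusted p = 0.129).

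Of 11 regulators of ribosomal protein mRNAs, 5 rose (45.5%) and 3 fell (27.3%). MYC had 347, 341 and 297 CPM with exosomes and 229, 214 and 180 CPM in controls, a log2 fold change of 0.57 with an adjusted p of 2.0e-05 and no overlap between the groups, and it stayed called at 0.33 after the removal. LARP1 had 421, 383 and 411 CPM with exosomes and 368, 357 and 359 CPM in controls, a log2 fold change of 0.08 that did not pass (adjusted p = 0.369). RPS6KB2 and EIF4EBP1, which lie on the mTOR pathway, rose by 0.54 and 0.88, and EIF4EBP2 fell by 0.43. After the removal RPS6KB2 stayed called at 0.36, and the calls of EIF4EBP1 and EIF4EBP2 ended, at 0.22 and -0.16 (adjusted p = 0.0969 and 0.0676).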

How the data were processed

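Total RNA of 6 SK-MES-1 cultures was taken up in Trizol, and a NEBNext Ultra RNA kit gave the libraries, per the labels' protocols; the instrument was a NovaSeq. STAR and GRCh38 (hg38) are named in the submitters' processing notes. The sources used here name no counting program, annotation or strand setting. The deposited table held the authors' read counts per gene. It also held the authors' normalised signal (counts over 1 size factor per library) and FPKM, and the authors' log2 fold changes and p-values of exosome over control. In the authors' deposited table, 42 members had a rise and 3 a fall at an adjusted p under 0.05; its sign was the same for 12393 of the 12449 genes tested here.

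The test was that of edgeR 4.0.16 under R 4.3.3 on the counts (filterByExpr, TMM, robust quasi-likelihood fit, group as the only term), with Benjamini-Hochberg adjustment over all genes. Library totals give the depth behind each value, and SD covers the 3 libraries of a group. SE was worked back from the log2 fold change and the quasi-likelihood test statistic, which use all 6 libraries. The 95% intervals were built from that SE with a t distribution. CPM used library totals, and FPKM served for levels between genes. GC content and length came from GENCODE 29 (longest transcript; principal transcript as an alternative), with a loess trend per library (span 0.3) as an offset. Start windows came from RefSeq (GRCh38.p14). The paralogue ratios used a pseudocount of 0.5 counts. The script was tested on simulated data with known changes. Members and gene lists were chosen with earlier results of these data known.

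Named were RPLP0, RPLP1, RPLP2, RPSA, RPL5, RPL11, RPS6, RPS19 and the paralogue pairs; the 8 largest called rises and falls; the 3 highest and 3 lowest by FPKM; members whose call the GC and length offset ended, by the 6 largest shifts; members called against their subunit; up to 4 genes of each of the 8 lists by adjusted p, plus LARP1 and MYC. RPL4, RPL41, RPS24, RPS15, RPL3, RPL10, RPL12, RPS12 and the members listed beside a change of call were chosen after their values were seen. Alternatives were other scalings and filters, DESeq2 1.42.0, limma-voom 3.58.1, offsets for GC content and length, a replicate block, a threshold of 0.01 and leaving out libraries. The principal-transcript offset, leaving out both libraries numbered 3 and the offset without control 3 were chosen after seeing the data. Some genes are not reported here and not drawn by name, though the counts include them.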

Additional observations from a re-analysis of the deposited data

How the results depend on the processing

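Depth limits RPL7A, RPL36A, RPL17, RPL21 and RPS10 most, and 3 libraries per group limit all p-values. Replicate numbers were checked for pairing: deviations of same-numbered libraries correlated at 0.067, 0.103 and 0.207 over 12449 genes, each library best with its own number, a hint from the data only. With the numbers as a replicate block, 45 members rose and 4 fell (1 of the large subunit), against 27.7% and 28.3% of all genes, more than without the block; with the block and the GC and length offset, 4 small subunit members fell. Members called lower, 4 in all, numbered 1 with library totals, 9 with principal-transcript offsets, 7 with the offset and control 3 left out, and 2 at a threshold of 0.01. Of all genes, 26.1% were called lower in the main fit, 20.0% with library totals and 17.2% with the principal transcript. This share was 16.6% with the offset and without control 3, 19.2% with GC content alone and 18.8% with block and offset. All-gene shares at 0.01 are not given here. For large subunit falls (2), library totals gave 1 and the 0.01 threshold 1, which also gave 16 rises in place of 27. Small subunit falls (2) numbered 0 with library totals, 4 with either GC and length offset and also without control 3, 1 with GC content alone, 6 with the principal transcript (and 8 rises in place of 14) and 1 at 0.01. Its median was 0.073 with the principal transcript, and that of the large subunit was 0.23 with the offset and without control 3. Other pathway genes called lower, 30 in all, numbered 19 with library totals, 10 with each GC and length offset, also without control 3, 9 with GC content alone and 14 with block and offset. The difference in share, 1.01 percentage points, was 1.7 in FPKM, and that in the ratio of subunits was 0.22 without the 3 most abundant members. Left out in turn, single libraries gave 29 (exosome 2) to 46 (control 3) members higher, 2 to 5 lower, 18 to 31 and 11 to 15 higher in the large and small subunit, 1 to 2 and 1 to 3 lower, 19 to 33 other pathway genes lower, and ratio differences from 0.108 to 0.173. Over all genes, 20.5% rose and 20.7% fell without exosome 2, and 24.4% and 23.3% without control 3. Where the sign turned, RPL22 had 0.037 with library totals and 0.082 with the principal transcript, and RPS10 had 0.060 with library totals, 0.030 with GC content alone, 0.032 without both libraries numbered 3 and -0.33 to 0.27 with single libraries left out. RPLP0 had -0.11 with either offset, -0.043 with GC content alone, -0.33 with the principal transcript (adjusted p 9.04e-04 in edgeR), -0.10 with block and offset, -0.063 with the offset and without control 3, and -0.0054 to 0.060 with single libraries left out. RPLP2 had -0.27 and -0.28 with the offsets, -0.022, -0.24, -0.25 and -0.078 under the same alternatives in that order, and RPS21 had -0.12 and -0.13, -0.15 with the principal transcript, -0.13 with block and offset and -0.044 without control 3. RPS27L ranged from -0.026 to 0.17 with single libraries left out. The cause was not tested. An alternative that adds retropseudogene counts was not run.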
